A study of Mus musculus with 4 samples.

Results

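Rab and Arf proteins are small GTPases that direct membrane traffic between the compartments of a cell. The probe sets described here are those that the array annotation gives exactly 1 gene symbol beginning with Rab, Arf or Arl and a digit, with Sar1, Rabac, or with Gdi and a digit, leaving out the Rab3 genes Rab3a, Rab3b, Rab3c and Rab3d and all control rows. They number 67 of the 12422 non-control probe sets and stand for 51 genes. Of these probe sets, 40 are of 30 Rab genes and 15 of 11 Arf, Sar1 and Arl genes. A further 9 are of 7 genes whose proteins bind or regulate these GTPases, and 3 are of other genes named after a Rab. The tissue was dentate gyrus, taken from young C57BL/6J males that the experimenter had handled and not treated otherwise, and total RNA was measured. There were 4 such control samples with 1 single-channel array each, and their RNA was taken 1, 2, 4 and 6 h after the shocked mice of the same study had received the last shock; the shocked mice were not analysed here. The number of animals behind each sample and any pooling are not stated in the labels. Each hour has no replicate, and a mean ± SD runs over the 4 arrays (n = 4) and holds the hour as well as the array. With 4 arrays the precision is limited, and p-values measure only the spread between these samples.

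Each Rab and Arf protein is a switch that is active with GTP bound and inactive with GDP bound. Exchange factors turn the switch on and GTPase-activating proteins turn it off. The active form sits on a membrane, Rabs through prenyl groups at the C-terminus and most Arfs through a myristoyl group at the N-terminus, and recruits effectors such as coats, tethers and motors. Neurons use these proteins in dendrites and axons to deliver receptors, recycle endosomes and form vesicles at the Golgi.

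Values are the authors' deposited intensities on a linear scale. They compare the same probe set between arrays and do not rank transcript levels between genes. A probe set was tested when its mean log2 intensity reached 6.66, after values under 16.4 had been set to 16.4. That held for 57 of the 67 probe sets and 45 of the 51 genes. The other 10 probe sets had means from 27.1 to 107 and values between 7.1 and 162; they belong to Arf6 (both probe sets), Arl14ep, Rab1a, Rab2a, Rab8b, Rab17, Rab20, Rab23 and Rab35. Arl14ep, Rab1a and Rab2a each had another, brighter probe set.

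Of 10 granule cell genes looked up, 9 were measured, and their 13 probe sets summed to between 8233 and 9028 in the 4 arrays; the 5 probe sets of CA pyramidal cell genes summed to between 6633 and 7611. Such sums rest on a few bright probe sets and do not tell the fields of the hippocampus apart. The 1 h array stood apart from the others. Its log2 values correlated with theirs at 0.92 to 0.93 across probe sets, against 0.957 to 0.964 among the others. Gapdh, a glycolytic enzyme, is used as a control transcript. Its 3' to 5' probe set ratio was 4.88 at 1 h and 1.13, 1.33 and 1.24 at 2, 4 and 6 h. For beta-actin, also a control transcript, the ratio differed less, at 2.51 at 1 h and 1.83, 2.20 and 1.97 later. Prox1, a transcription factor that defines granule cells, read 71.6, 278, 155 and 232, which is 3.01-fold lower at 1 h. Of the 11 granule cell probe sets tested, 5 were below the mean of the other arrays at 1 h. The median difference of the 11 was 0.042 on the log2 scale. Some markers of other cell types also differed. The 8 choroid plexus and ependymal probe sets summed to 2590 at 1 h and to 4611, 5963 and 7767 later. Of the 6 tested, 5 were below the mean of the other arrays at 1 h. Among them Ttr rose throughout, at 225, 444, 1258 and 3009. It was the 1 probe set of all 7453 to pass the trend over the hours (limma, adjusted p = 0.023). The brightest, of Igf2, read 1501, 2876, 3282 and 3269. The 12 oligodendrocyte probe sets summed to 13525, 20712, 13681 and 14101, and 9 of 10 tested were lower at 1 h. For CA pyramidal cells 2 of 4 tested were below at 1 h. The counts were 5 of 9 for astrocytes, 5 of 8 for microglia and 2 of 5 for endothelial cells. Over all 7453 probe sets tested, 45.4% were below at 1 h. No marker probe set was listed at 0. What the 3' to 5' ratios and these markers contribute to the differences at 1 h given below was not tested. In dissected tissue, fewer cells of a type and less RNA per cell cannot be told apart.

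**Figure D1:**
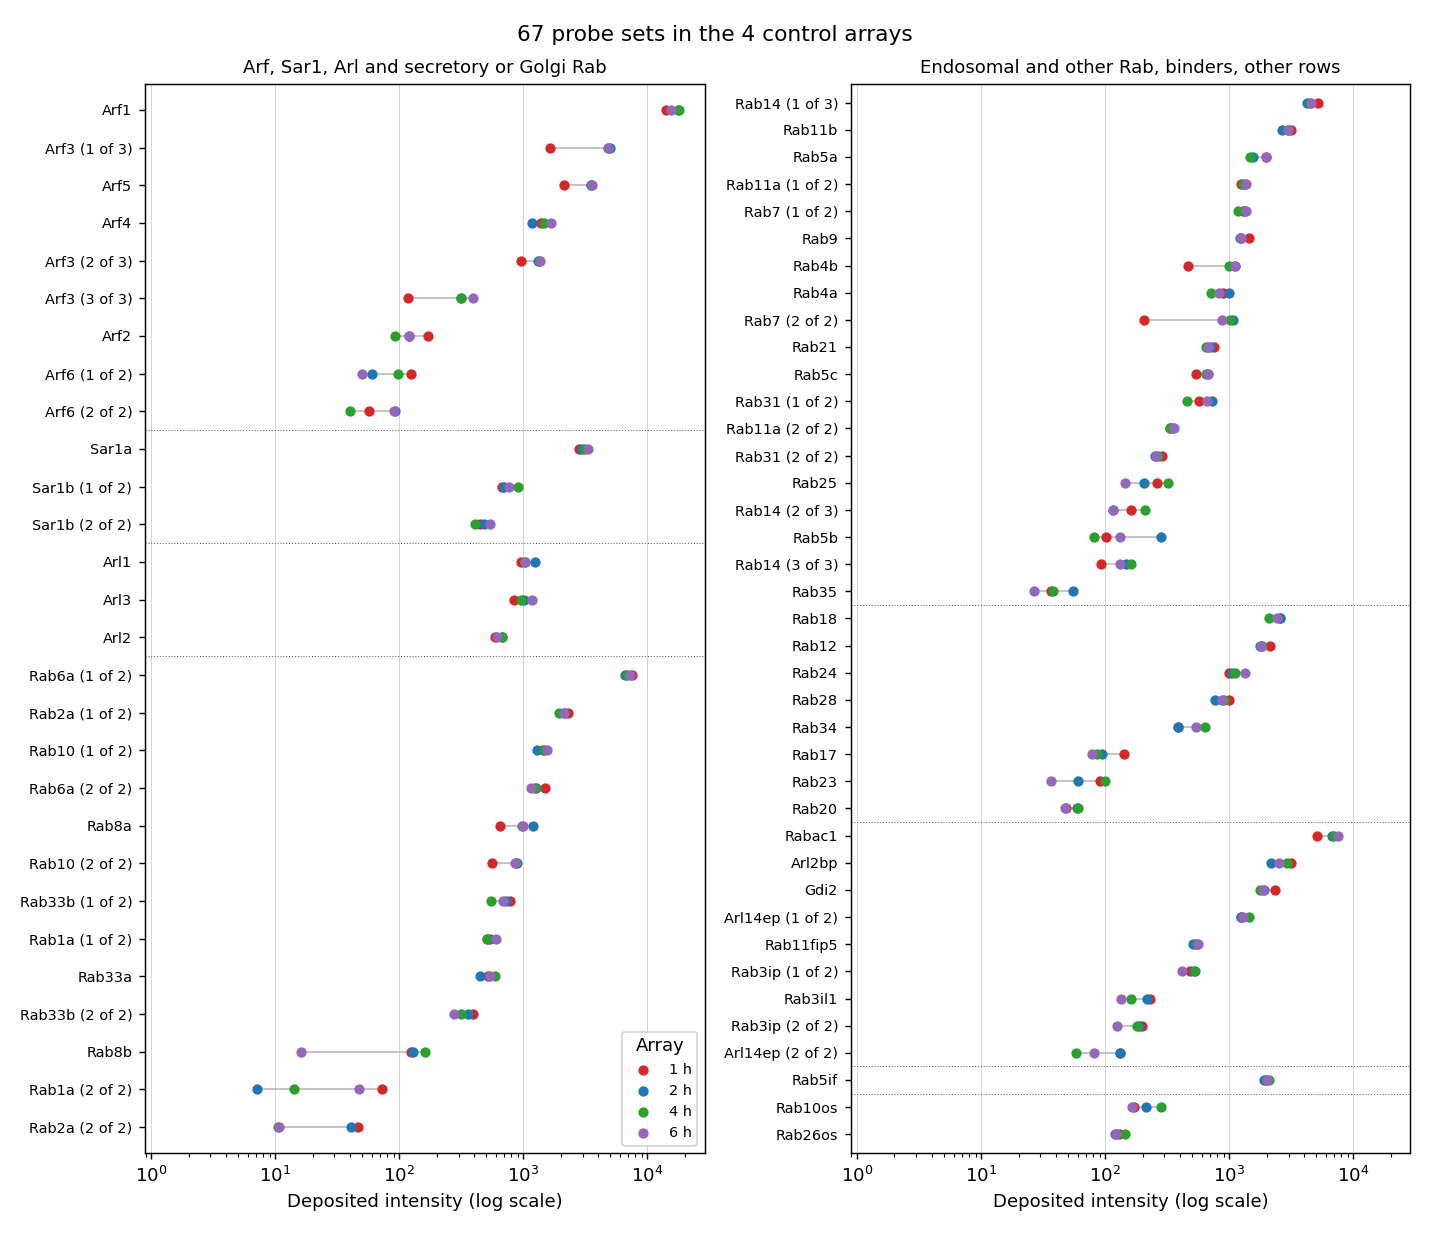
Deposited intensity (log scale) of all 67 probe sets, 1 row each, with 1 point per array (1, 2, 4 and 6 h) and a grey line from the lowest to the highest; rows run by role and then by mean, dotted lines divide the roles, and "1 of 3" numbers the probe sets of a gene by mean. Most rows are narrow, and the 1 h points of Arf3, Arf5, Rab4b, Rab8a and 1 probe set of Rab7 lie to the left of their rows.

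The Arf GTPases recruit coats to the Golgi and endosomes. Arf1, which brings the COPI coat and clathrin adaptors to the Golgi, had the brightest of the 67 probe sets, at 14121, 17641, 18003 and 15377 at 1, 2, 4 and 6 h. The 1 h value was the lowest and was 1.20-fold below the geometric mean of the others. Arf3, a close relative of Arf1 that also works at the Golgi, had 3 probe sets. The brightest read 1642 at 1 h and 5011, 4823 and 4813 later, a 2.97-fold difference. The others read 954, 1314, 1347 and 1366, which is 1.41-fold, and 118, 316, 313 and 391, which is 2.86-fold. All 3 were lowest at 1 h and close together afterwards: without the 1 h array the SD of log2 was 0.033, 0.028 and 0.18, against 0.79, 0.25 and 0.77 with it.

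Arf5, which acts between the endoplasmic reticulum and the Golgi, read 2112 at 1 h and 3493, 3514 and 3589 later. It was 1.67-fold lower at 1 h, and the later 3 arrays lay within an SD of 0.021 on the log2 scale. Arf4, which shares that step with Arf5, did not stand low at 1 h: it read 1383, 1171, 1477 and 1660, on a probe set (160082_s_at) whose suffix marks sequence that may be shared with other transcripts. Arf2 was dim, at 170.4, 120.1, 91.9 and 118.9, and was the only Arf, Sar1 or Arl probe set tested that was above the mean of the other arrays at 1 h. Both probe sets of Arf6, the Arf of the plasma membrane, were too dim to test, at 125, 60.1, 97.6 and 50.4 and at 56.9, 92.9, 40.1 and 90.5.

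Sar1 starts COPII coat assembly on the endoplasmic reticulum. Sar1a read 2793, 2980, 3112 and 3340, a spread of 3056 ± 230, with each later array above the one before. Sar1b read 670.3, 691, 901 and 765 on 1 probe set and 449, 479, 407 and 543 on the other, both with suffixes that mark shared or fewer probes. Of the Arf-like proteins, Arl1, which recruits golgins to the trans-Golgi, read 954, 1236, 1027 and 1037. Arl2, which acts in tubulin folding, read 595, 671, 674 and 614. Arl3, which releases lipid-modified cargo into cilia, read 838, 1017, 949.9 and 1165. None of these 6 probe sets reached a 1.5-fold gap between its lowest and highest array.

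Together, 12 of the 13 tested Arf, Sar1 and Arl probe sets were below the mean of the other arrays at 1 h, with a median difference of -0.22 on the log2 scale. Over all 7453 probe sets tested, 45.4% were below, with a median difference of 0.049. For the 33 tested Rab probe sets the count was 15, with a median of 0.08. The count of 12 of 13 held when arrays were scaled to the same median or quantile normalised. It changed with the filter on brightness. With no filter it was 13 of 15 (44.3% of all), with the dim Arf6 probe set 100462_at also above at 1 h. With the filter at the 60th percentile it was 11 of 11 (47% of all). Several of these probe sets belong to the same gene and all rest on the same 1 h array, so they are not independent. The split by family was made after the values were seen, and the difference between the families was not tested.

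**Figure D2:**
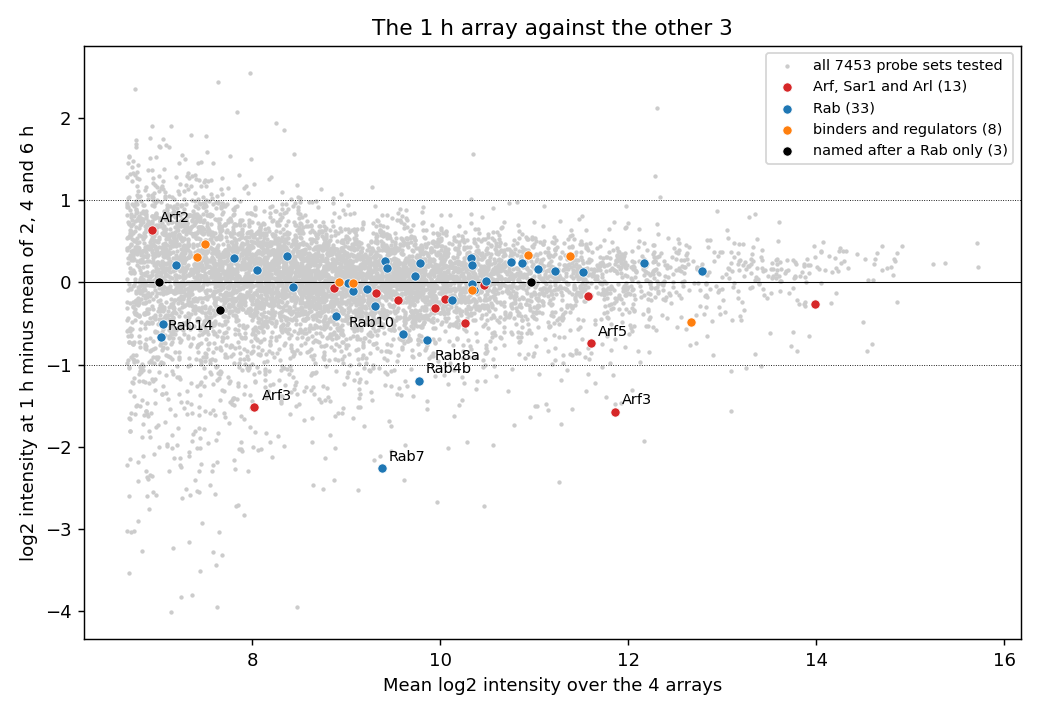
Difference between the log2 intensity at 1 h and the mean of 2, 4 and 6 h (vertical) against mean log2 intensity (horizontal) for all 7453 tested probe sets in grey and the 57 described here in colour by family; dotted lines mark 2-fold. The 4 coloured points under the lower line are 2 probe sets of Arf3, 1 of Rab4b and 1 of Rab7, and no coloured point lies above the upper line.

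Promoter sequence is shown for Arf1, Arf3, Rab4b and Rab7, the gene of the brightest probe set and those with a probe set at least 2-fold lower at 1 h, chosen after their values were seen. Sequences are RefSeq's on GRCm38.p6, 5′ to 3′ on the gene's strand, 250 bases ending at the annotated start, from the first window listed for each gene. Capitals mark 4 motifs, each searched on both strands: the GC box, which is GGGCGG. Next is the CCAAT box, spelled as its name. Then comes the TATA box, searched as TATAAA. Last is the cyclic AMP response element, searched as TGACGTCA. Matches of different motifs may overlap. Arf1 is at chr11:59228268-59228517, Arf3 at chr15:98762993-98763242, Rab4b at chr7:27178884-27179133 and Rab7 at chr6:88045271-88045520, all on the minus strand.
Arf1: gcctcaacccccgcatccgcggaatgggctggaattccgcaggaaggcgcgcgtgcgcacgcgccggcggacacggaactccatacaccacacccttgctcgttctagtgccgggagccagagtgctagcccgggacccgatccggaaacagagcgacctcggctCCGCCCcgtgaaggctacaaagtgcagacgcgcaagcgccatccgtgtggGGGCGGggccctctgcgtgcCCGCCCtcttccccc
Arf3: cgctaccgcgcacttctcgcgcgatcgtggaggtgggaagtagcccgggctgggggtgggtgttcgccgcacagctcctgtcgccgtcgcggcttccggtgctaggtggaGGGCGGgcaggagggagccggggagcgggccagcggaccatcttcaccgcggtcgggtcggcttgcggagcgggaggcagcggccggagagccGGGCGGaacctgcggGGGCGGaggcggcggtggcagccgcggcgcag
Rab4b: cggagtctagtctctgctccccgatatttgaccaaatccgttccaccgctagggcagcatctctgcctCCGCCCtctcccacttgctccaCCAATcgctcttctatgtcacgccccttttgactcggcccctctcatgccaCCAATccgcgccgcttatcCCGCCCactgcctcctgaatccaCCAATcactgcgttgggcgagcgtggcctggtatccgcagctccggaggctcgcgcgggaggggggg
Rab7: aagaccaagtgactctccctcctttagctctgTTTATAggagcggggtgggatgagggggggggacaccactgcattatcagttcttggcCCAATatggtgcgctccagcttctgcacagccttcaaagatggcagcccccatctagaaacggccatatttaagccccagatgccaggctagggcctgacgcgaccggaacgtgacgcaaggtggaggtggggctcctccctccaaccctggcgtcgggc

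The windows of Arf1 and Arf3 each held 3 GC boxes, that of Rab4b 2 GC boxes and 3 CCAAT matches, and that of Rab7 no GC box, 1 CCAAT and 1 TATA match. Windows were given for 37 of the 41 GTPase genes, 43 windows in all. The GC box stood in 32 of the 43 (74.4%), against 42.6% of the 21262 windows of protein-coding genes and 32.7% of all 32851. CCAAT stood in 44.2% of them (35.4% of protein-coding and 33.8% of all windows), TATAAA in 2.33% (11.6% and 12.4%) and TGACGTCA in 4.65% (1.92% and 1.55%). Their median GC content was 63.2%, against 55.6% for protein-coding genes. These are matches of letters and say nothing of binding.

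The next Rabs act in the secretory pathway and at the Golgi. Rab6a, which moves vesicles from the Golgi along microtubules, read 7567, 6633, 6852 and 7221, or 7068 ± 411, and 1501, 1274, 1245 and 1155 on a second probe set. Rab2a and Rab1a, which act between the endoplasmic reticulum and the Golgi, read 2293, 2104, 1940 and 2119, and 509, 538, 509.5 and 596, on their brighter probe sets. Rab10, which carries vesicles to the plasma membrane, read 1451, 1299, 1453 and 1555 on 1 probe set, with no gap at 1 h, and 562, 881, 871 and 853 on another, 1.55-fold lower at 1 h. Rab8a, which works in polarised exocytosis, read 646 at 1 h and 1187, 979 and 1000.2 later, 1.63-fold lower, on its only probe set. Rab33b of the Golgi read 390.5, 359, 312 and 274, highest at 1 h, and 779, 719, 551 and 690.2 on a second probe set. Rab33a lay between 449.7 and 590. Rab8b, a paralog of Rab8a, was too dim to test, at 123, 128, 162 and 16.1.

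Among the 57 tested, endosomal Rabs held both the probe set of lowest SD on the log2 scale (Rab11a, 0.057) and that of highest (Rab7, 1.14). Rab14, which acts between the Golgi and early endosomes, read 5185, 4217, 4479 and 4564 on its brightest probe set. Its 2 dim ones read 163, 116, 210.3 and 115, and 92.3, 148, 161 and 131. Rab11b and Rab11a, which run the recycling endosome that returns receptors to the surface, hardly varied. Rab11b measured 2935 ± 190.3, and Rab11a 1312 ± 57.9 and 345 ± 13.6 on its probe sets, which is an SD of 4.4% and 3.9% of the mean.

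Rab5 proteins organise early endosomes. Rab5a read 1958, 1559, 1458 and 1982, high in the first and last arrays. Rab5c read 542, 669.8, 645 and 674, lowest at 1 h by 1.22-fold. Rab5b was dim and stood high in 1 array only, at 102, 282, 81.8 and 132. For Rab4 proteins, which return cargo quickly to the surface, the paralogs differed. Rab4b read 469 at 1 h and 1114, 1003 and 1106 later, 2.29-fold lower at 1 h with the later arrays close together. Rab4a read 887, 994, 715 and 832, with 1 h inside the range of the others.

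Rab7, of late endosomes and lysosomes, gave 2 different pictures. Probe set 99587_at read 1279, 1339, 1183 and 1374, or 1294 ± 83.8. Probe set 95785_s_at read 206 at 1 h and 1080, 1006 and 870.2 later, 4.78-fold lower at 1 h, the largest difference of the 57. Its suffix marks sequence that may be shared. Rab9, which returns receptors from late endosomes to the Golgi, read 1442 at 1 h and 1227, 1253 and 1247 later. Rab21, of integrin traffic, lay between 647 and 759, and Rab31, between the Golgi and endosomes, between 459 and 726 on its brighter probe set. Rab25, a Rab11 relative known from epithelia, read 260.4, 206, 322 and 145.

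Of the Rabs with other roles, Rab18, of the endoplasmic reticulum and lipid droplets, measured 2396 ± 224, and Rab12 2116 at 1 h and 1779, 1833 and 1784 later. Rab24, linked to autophagy, read 1001, 1045, 1109 and 1342, each array above the one before. Rab34, linked to cilia and lysosome position, read 385, 387, 642 and 536: the 4 h and 6 h arrays were above the 1 h and 2 h arrays. Rab28 lay between 767 and 996. Rab17 and Rab23, which were too dim to test, had values from 77.9 to 142 and from 36.7 to 98.9.

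Proteins that bind these GTPases differed among themselves at 1 h. Rabac1, the prenylated Rab acceptor of Golgi membranes, read 5061, 6733, 6994 and 7463, 1.39-fold lower at 1 h and higher in each later array. Gdi2, the GDP dissociation inhibitor that takes Rabs off membranes, went the other way, at 2314, 1889.6, 1769 and 1866. Arl2bp, which binds active Arl2, read 3135, 2187, 2917 and 2520.3. Rab11fip5, a Rab11 effector, was steady at 538 ± 23.2, and Arl14ep, an effector of Arl14, read 1231, 1233, 1436 and 1282 on its brighter probe set. The exchange factor genes Rab3il1 and Rab3ip were lowest at 6 h: Rab3il1 read 230.1, 216, 160.4 and 133, and Rab3ip 485, 520.1, 533 and 412, and 199, 189, 179 and 124. The 3 rows of other genes named after a Rab were Rab5if and the opposite-strand RNA genes Rab10os and Rab26os. They measured 1996 ± 78.7, 206 ± 54.5 and 129 ± 11.6, in that order.

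The comparison between hours asks how far these control levels differed with the time of sampling. At 2 h, 5 of the 57 probe sets were at least 2-fold apart from 1 h, all 5 higher, where 9.79% of all 7453 were apart and 6.35% higher. They were 2 of Arf3, and those of Rab4b, Rab5b and Rab7 (95785_s_at). At 4 h there were 4, all higher, against 8.41% of all and 5.68% higher, and at 6 h 4, all higher, against 9.34% and 5.69%. The 4 were the same at both hours: the brightest and the dimmest probe set of Arf3, Rab4b and Rab7 (95785_s_at). With 1 array per hour none of these differences has a replicate check or a p-value, and all 3 comparisons share the 1 h array. The counts correspond to shares of 8.77%, 7.02% and 7.02%, near those of all probe sets. With the mean of the remaining 2 arrays in place of 1 h as the reference, the counts were 1 at 2 h and 1 at 4 h, both Rab5b, and 0 at 6 h.

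Against the mean of the other 3 arrays, the 1 h array was at least 2-fold lower in 4 of 57 probe sets (5.29% of all) and higher in 0 (1.8% of all). The count was 1 of 57 at 2 h (3.39% of all), 0 at 4 h (2.82%) and 0 at 6 h (2.76%). At a 1.5-fold difference, 8 probe sets of 7 genes were lower at 1 h (11.7% of all): 2 of Arf3, and those of Arf5, Rab4b, Rab7, Rab8a, Rab10 and Rab14. Only Arf2 was higher by that much, where 9.46% of all were. The 1 h value was below each of the other 3 in 22 probe sets (30.4% of all) and above each of them in 18 (35.4% of all).

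For the trend over the hours, limma fitted a straight line through the log2 values of each of the 7453 probe sets. In limma 0 of the 57 passed an adjusted p of 0.05, where 1 of all passed (0.0134%), and the adjusted p of the 57 ran from 0.874 to 0.998. At an unadjusted p under 0.05 there was 1 of 57, the dimmest probe set of Arf3, against 4.4% of all. Its slope was 0.27 ± 0.11 (SE) log2 units per hour (limma, adjusted p = 0.874), and 0.076 without the 1 h array. The largest slope was that of Rab7 on 95785_s_at, at 0.30 ± 0.17, which became -0.078 without the 1 h array. The brightest probe set of Arf3 went from 0.23 to -0.015 in the same way, Rab4b from 0.18 to -0.0024, and Rab10 on 101933_at from 0.089 to -0.012. Those of Rab34 (0.13) and Rab3il1 (-0.17) were 0.12 and -0.18 without the 1 h array. The sign of the slope changed in 17 of the 57 without the 1 h array, and in 30 of the 57 without at least 1 of the arrays. Slopes were positive in 33 of the 57 (46.5% of all) and negative in 24, with a median of 0.008, against -0.0063 for all. Each later array read higher than the one before in 5 probe sets (4.44% of all), of Arf3 (95889_at), Arf5, Rab24, Rabac1 and Sar1a. Each read lower in 4 (5.98% of all), of Rab33b (103062_at), Rab3il1, Rab3ip (161209_r_at) and Rab6a (97222_at). The other, brighter tested probe sets of Rab33b, Rab3ip and Rab6a did not fall in this way.

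**Figure D3:**
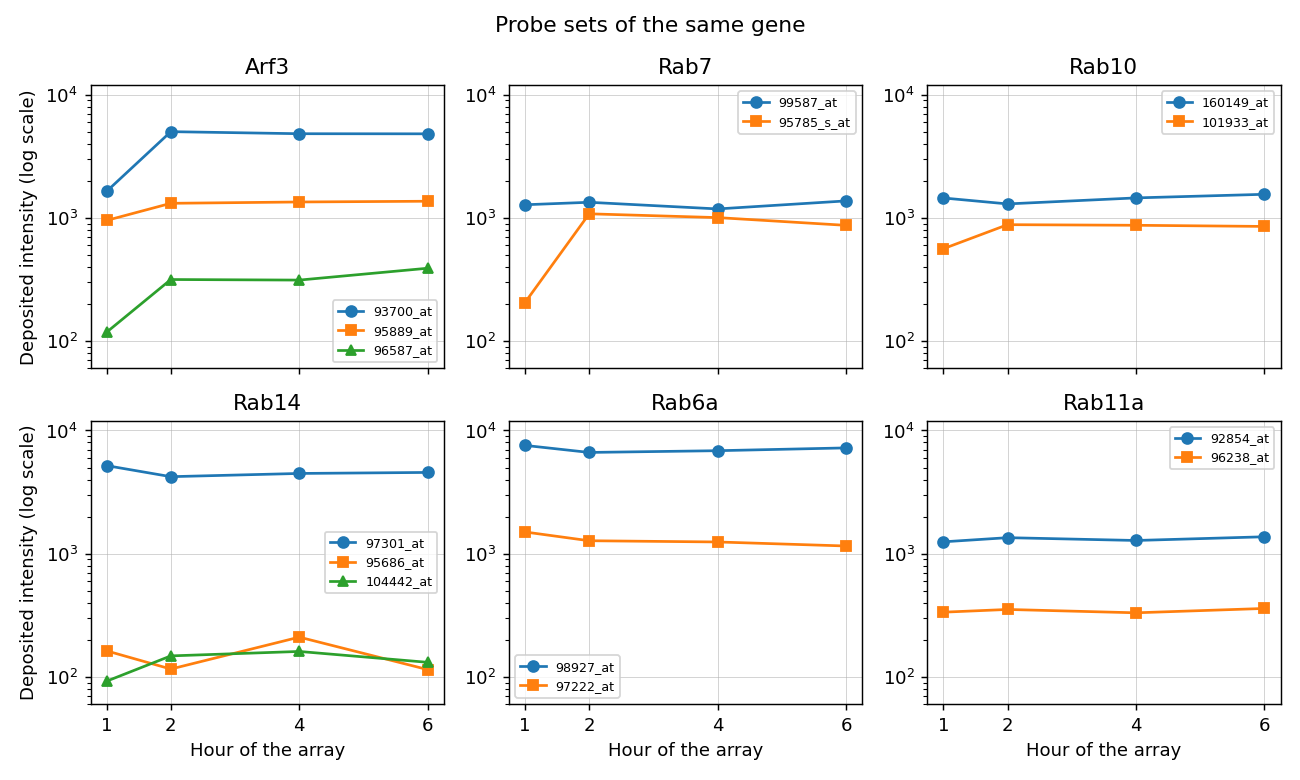
Deposited intensity (log scale) against the hour of the array for the probe sets of 6 genes, 1 line per probe set and 1 point per array. The 3 lines of Arf3 all start low at 1 h, whereas only 1 line each of Rab7, Rab10 and Rab14 does. The lines of Rab6a and Rab11a are nearly flat.

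Probe sets of the same gene could be compared for 10 genes with 2 or more tested, in 14 pairs. The difference at 1 h was at least 2-fold apart in 3 pairs. The probe sets of Rab7 were 4.71-fold apart in that difference, and within Arf3 the middle probe set was 2.11-fold and 2.03-fold apart from the other two, though all 3 were low at 1 h. For Rab10 the gap was 1.57-fold, and for Rab14 the dimmest probe set was 1.86-fold and 1.83-fold apart from the others. Pairs of Rab11a, Rab33b, Rab6a and Sar1b lay within 1.12-fold. Probe sets of 1 gene come from the same RNA and are not replicates.

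Most of these genes differed little between the control arrays. In 40 of the 57 probe sets the highest array was under 1.5-fold of the lowest, a share of 70.2%, against 54.1% of all 7453. Without the 1 h array it was 49 of 57, or 86%, against 74.7%. The median SD over the 4 arrays was 0.17 on the log2 scale (1.13-fold), against 0.24 (1.18-fold) for all, and 0.13 against 0.18 without the 1 h array. These genes were also brighter, with a median mean intensity of 888 against 449.8, and brighter probe sets vary less: in the brightest 1491 probe sets, which held 22 of the 57, the medians were 0.12 and 0.16. In the next bands of brightness the medians of the Rab and Arf probe sets and of all were 0.198 and 0.194 (15 of the 57), 0.16 and 0.23 (8), 0.36 and 0.30 (5) and, in the dimmest, 0.37 and 0.44 (7). The difference in spread was not tested.

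**Figure D4:**
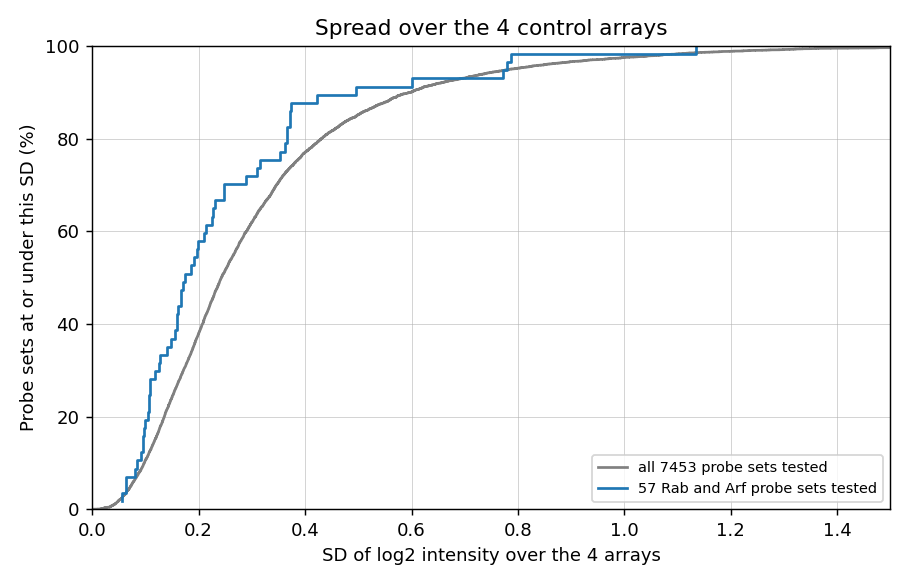
Cumulative share of probe sets (vertical, %) at or under each SD of log2 intensity over the 4 arrays (horizontal) for the 57 Rab and Arf probe sets in blue and all 7453 in grey. The blue curve lies to the left over most of its length, with medians of 0.17 and 0.24, and the curves meet at high SD.

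Lists of genes that act on these GTPases were measured in the same fit. In limma none of their probe sets passed an adjusted p of 0.05 in either direction. At an unadjusted p under 0.05 there were 3 higher and 1 lower over the 6 lists, against 4.4% of all 7453. The lists had 11, 25, 22, 20, 39 and 17 tested probe sets, in the order given below, and some are in more than 1 list. For the counts of each list, the shares over all 7453 probe sets at 1 h are the background. Of all, 45.4% were below the mean of the other arrays, with a median difference of 0.049. At 2-fold, 5.29% were lower and 1.8% higher. The list of prenylation and membrane extraction genes had 11 tested probe sets, 6 of them below at 1 h, and its median difference at 1 h was -0.058. It held Rabggta, a subunit of the enzyme that prenylates Rabs, at 55.5, 321, 493 and 387, which is 7.11-fold lower at 1 h. Rabggtb, the other catalytic subunit of that enzyme, went the other way at 1054, 448, 757 and 630.2, above the other arrays at 1 h by 0.82 on the log2 scale; it was added after its values were seen. The brightest probe set of the list was of Nmt1, which myristoylates Arfs, at 1371, 1908, 1821 and 1767. A second Nmt1 probe set read 1170, 1330, 1194 and 1226, which is 1.07-fold lower at 1 h. Fnta read 805, 804, 820 and 915. Rab exchange factors and GAPs (25 tested, 9 below at 1 h, median 0.12) had no probe set 2-fold apart at 1 h. The brightest probe set of this list was of Dennd5a, at 2705, 3029, 3041.5 and 2744. Tsc2 read 2088.5, 2190, 2038 and 2074 on its brightest probe set. The GAP gene Rabgap1l read 2072, 1431, 1260.2 and 1374, highest at 1 h.

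Rab effectors and tethers (22 tested, 10 below, median 0.11) had 1 probe set 2-fold apart at 1 h. It was that of the exocyst gene Exoc4, at 161, 324, 332 and 363. The brightest probe set of this list was of Gorasp2, at 3310, 2890, 2967.5 and 2921. Next were Myo5b, at 1831, 2421, 2112 and 2180, and Vps41, at 1104, 1002, 1011 and 983. Arf exchange factors and GAPs (20 tested, 7 below, median 0.14) had no probe set 2-fold apart at 1 h. The brightest of them was Psd, an Arf6 exchange factor, at 12191, 9263, 10531 and 9125. Agap1 read 3133, 2458, 2921 and 2937 on its brighter probe set. Arfgef1, an Arf1 exchange factor, read 1412, 2277, 1855 and 2402. Arf effectors, adaptors and coats (39 tested, 19 below, median 0.0023) had 1 probe set 2-fold apart at 1 h. It was that of the Golgi adaptor Gga1, at 42.1, 148, 489.9 and 224. The clathrin adaptor gene Ap1s1 read 2863, 5604, 4866 and 4839.6. Copb2 read 2479, 2862, 2584 and 3162 on its brighter probe set, and Copa 2625, 2978, 2504 and 2904. The Sar1 and COPII list (17 tested, 12 below, median -0.15) had 2 probe sets 2-fold apart at 1 h. One was of Sec23a, at 109, 425, 335 and 409, whose brighter probe set read 2502, 2124, 2174 and 2436. The other was of Cideb, at 64.7, 141, 195 and 166. Surf4 was the brightest of the list, at 3204, 4600, 4390 and 3613, and Sec16a read 1500, 1510, 1044 and 1338. Of these lists, 5 probe sets are also among the 67.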

How the data were processed

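The authors deposited intensity on a linear scale for 12488 probe sets on 4 arrays. The software and settings behind these values are not given in the sources used here. The mean after trimming 2% at each end was 500.3 in every array, so values were used as deposited. The 66 control rows were left out of the fit. Symbols of the 67 probe sets are those of the array annotation, which can be old; for the lists of regulators and markers they were brought up to date by Entrez identifier with RefSeq's GRCm38.p6 gene table. Values under the 10th percentile (16.4) were set to it, log2 was taken, and probe sets at or above the 40th percentile of mean log2 (6.66) were tested, 7453 in all. The trend used limma 3.58.1 in R 4.3.3 (lmFit on the hour, eBayes with a trend on intensity, 2 residual degrees of freedom, two-sided, Benjamini-Hochberg at 0.05 over the 7453), and the code was tested on simulated data. Hours were compared by log2 difference and counted at 2-fold, with no test. Alternatives were 2 scalings, 2 filters, 2 floors, 2 time scales, another variance prior, another reference and leaving out each array.

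The probe sets and lists were chosen with earlier results of these data known. Named were all Arf, Sar1, Gdi, Rabac and binder rows, the 12 brightest Rab and all 3 Arl rows, the 8 largest slopes each way, rows 2-fold apart at 1 h, further probe sets of those genes and the Rab4, Rab5, Rab7 and Rab11 genes. Of each regulator list the 3 brightest and those 2-fold apart at 1 h were named. Rab1a, Rab8a, Rab8b, Rab17, Rab20, Rab21, Rab23, Rab24, Rab28, Rab31, Rab33a, Rab35, Rab5if, Rab10os, Rab26os and Rabggtb were added after their values were seen.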

Additional observations from a re-analysis of the deposited data

Results flagged for a closer look

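On the linear intensity, in 6 of the 57 tested probe sets the 1 h array lay so far from the other 3 that its gap to the nearest exceeded Dixon's 95% critical value for 4 values. It was low in 4 of them: Arf3 at 1642 (93700_at) and 954 (95889_at), Arf5 at 2112 and Rab10 at 562 (101933_at). It was high in Rab12 at 2116 and Rab9 at 1442. On the log2 scale, added after seeing the data, there were 7 of the 57 (8.63% of all): Rab4b at 469 and Rab7 at 206 (95785_s_at), both low at 1 h, were added, and Rab12 was not among them. Chance flags about 1 in 20 such groups. On the linear scale 7.54% of all 7453 tested probe sets had such an array, and the outlying array was the 1 h array in 4.48% of the 7453, against 10.5% of the 57. The 3' to 5' ratio of that array was 4.88 for Gapdh and 2.51 for beta-actin. In the other arrays it was 1.13 to 1.33 for Gapdh and 1.83 to 2.20 for beta-actin. The part of these ratios in the values above was not tested.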

How the results depend on the processing

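With 1 array per hour and 2 residual degrees of freedom, only large and even trends can pass, and dim probe sets near 16.4 carry little signal. None of the Rab and Arf probe sets passed limma's adjusted p of 0.05 under any alternative run. Over all probe sets limma called 0 with no filter on dim probe sets, with 4 and 6 h set against 1 and 2 h, and with eBayes without a trend on intensity, and 0 to 1 when an array was left out. At an unadjusted p under 0.05 the count of Rab and Arf probe sets was 2 with arrays scaled to the same median, 2 with no filter, 0 with the filter at the 60th percentile, 6 on log2 of the hour, and 0 to 8 when an array was left out, the 8 without the 2 h array. Chosen after seeing the data, slopes of all 57 were refitted without each array: the sign changed in 17, 6, 4 and 11 of the 57 without the 1, 2, 4 and 6 h array, and in 30 without at least 1 of them. Among the 16 with the largest slopes, 6 changed sign. Theirs ranged from -0.015 to 0.44 for Arf3 (93700_at), from -0.078 to 0.65 for Rab7 (95785_s_at), from -0.0024 to 0.30 for Rab4b and from -0.012 to 0.18 for Rab10 (101933_at), each negative without the 1 h array. The range was -0.27 to 0.062 for Rab5b, positive without the 2 h array, and -0.16 to 0.13 for Rab25, positive without the 6 h array.

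With no filter, and so more and dimmer probe sets, 2499, 2420 and 2462 of all were at least 2-fold apart from 1 h at 2, 4 and 6 h, 7 and 8 of the Rab and Arf probe sets at 4 and 6 h, and 2039 of all at 1 h against the other 3 arrays. With the filter at the 60th percentile the counts over all were 249, 204 and 231, and 190 at 1 h, and 3 of the Rab and Arf probe sets were apart at 2 h. With the remaining 2 arrays as the reference in place of 1 h they were 235, 235 and 203 over all, and 1, 1 and 0 of the Rab and Arf probe sets. The cause of these shifts beyond the number of probe sets was not tested. With no filter, the Rab and Arf probe sets added at 4 and 6 h were all dim and all lower than at 1 h. They were of Arl14ep, Rab1a and Rab2a at 4 h, and of Arf6, Rab2a, Rab8b and Rab23 at 6 h. Those of Rab1a and Rab2a were also at least 2-fold higher at 1 h than the mean of the other 3 arrays. The single direction among the 57 therefore held only with dim probe sets left out. The count of 4 lower at 1 h was 4 without the 2, 4 or 6 h array in turn. The counts under 1.5-fold when an array was left out, chosen after seeing the data, were 41 to 49 of the 57 and 4600 to 5565 of all. No paired analysis was possible because all 4 arrays belong to 1 group.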
